A study of Mus musculus with 9 samples.

Results

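The Bcl2 family holds the proteins that decide whether the outer membrane of the mitochondrion is opened during apoptosis. Of the 54532 genes in the deposited table, 10 were chosen by symbol, and all 10 were found. They were the pro-survival genes Bcl2, Bcl2l1, Bcl2l2 and Mcl1, the effectors Bax and Bak1, and the BH3-only genes Bad, Bid, Bcl2l11 and Bbc3. Pro-survival proteins hold the effectors in check. BH3-only proteins are sensors of stress that bind pro-survival proteins through a short helix, the BH3 domain, and some of them also activate the effectors directly. Active Bax and Bak1 form pores through which cytochrome c leaves the mitochondrion, and cytochrome c with Apaf1 then activates caspase-9. In the brain this pathway removes surplus neurons during development and takes part in the death of neurons after loss of blood flow.

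RNA was sequenced from the brain cortex of adult male mice of 3 inbred strains, aged 8 to 12 weeks, in a search for transcripts that differ between strains with different infarct volumes after stroke. The groups were B6 (C57BL6/J), C3H (C3H/HeJ) and the wild-derived WSB (WSB/EiJ), with 3 mice each. The labels give no treatment, transgene or mutation for any group. Each strain is 1 inbred genotype, so its mice measure the spread within that genotype.

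The libraries held 16317439 to 21562429 reads on genes. Markers of neurons were high in all 9 libraries, where 5 genes summed to 759 to 907 FPKM (fragments per kilobase scaled between libraries, a level that allows for gene length). Markers of other tissue moved with strain or with single mice. Blood markers (Hba-a1, Hba-a2, Hbb-bs, Hbb-bt and Alas2) summed to 632 to 1010 FPKM in C3H, against 217 to 254 in B6 and 249 to 329 in WSB. The listed genes did not all move alike. Hba-a1, Hbb-bs and Alas2 were called higher in C3H than in either other strain. Hbb-bt was 5.27, 2.20 and 69.3 FPKM in C3H against 23.4 to 27.8 in B6. Hba-a2 was 1.37, 78.1 and 82.2 in C3H against 9.96 to 15.3 in B6. In WSB against B6, Hba-a1 was called higher and Hbb-bt lower, with Hbb-bt at 0.389 to 1.89 FPKM in WSB. Mog, a myelin gene of oligodendrocytes, stood at 16.4 to 25.8 FPKM in WSB, against 34.7 to 49.9 in B6 and 36.9 to 50.5 in C3H. Markers of striatum were highest in B6 replicate 1, at 323 FPKM, with the other libraries between 51.7 and 222. Markers of choroid plexus (Ttr, Folr1, Kl, Aqp1 and Kcnj13) varied most within a strain, at 64.5, 758 and 63.8 FPKM in the B6 mice. The C3H mice ranged from 90.2 to 651 FPKM, and those of WSB from 464 to 600.0. Among the single markers called, the neuronal Syt1 was lower in C3H than in either other strain, at 76.8 to 86.5 FPKM against 170.1 to 187 in B6 and 138 to 162 in WSB. No other neuron marker was called. Rbfox3 was 55.0 to 62.6 FPKM in C3H against 52.3 to 57.8 in B6, and Slc17a7 was 299 to 388 against 240 to 313. Snap25 was 275 to 303 in C3H against 284 to 345 in B6, and Gad1 was 40.2 to 44.7 against 39.6 to 49.6. Of the microglia markers, Csf1r was called lower in WSB than in B6, at 14.7 to 15.3 FPKM against 19.0 to 20.5. Aif1 was called higher in C3H than in B6, at 7.31 to 8.91 against 4.53 to 5.30. The astrocyte marker Gfap was called lower in WSB than in C3H, at 48.5 to 52.6 against 70.2 to 95.1. No other microglia or astrocyte marker was called. Wfs1, a gene on the hippocampus list, was called higher in WSB than in either other strain. No other gene on that list was called, and the others overlapped between WSB and B6. Prox1 was 1.79 to 1.94 FPKM in WSB against 1.51 to 2.76 in B6, and Neurod2 was 31.1 to 36.2 against 26.9 to 42.6. Zbtb20 was 1.67 to 2.13 in WSB against 1.30 to 1.79 in B6, and Spink8 was 3.67 to 6.96 against 1.36 to 6.63. Libraries also differed in how the level of a gene followed the GC content of its transcript. Over 12995 genes, Spearman's rho between GC content and the deviation of a library from the mean of all libraries was 0.51 and 0.53 in C3H replicates 1 and 3, and −0.47 to 0.06 in the other 7 libraries. The lowest value belonged to B6 replicate 1. The part of these markers and of the GC trend in the results was not tested, except where a value with the GC trend removed is given.

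The BH3 core is the stretch that the family's roles share, and 6 of these cores are shown, from a pro-survival gene, an effector and each BH3-only gene, so that the roles can be compared. The core was searched in the annotated coding sequence as a leucine, any 3 residues, then glycine, alanine or serine, then aspartate, followed by an acidic residue or glycine. It was found once in each of 9 members and was not found with these letters in Bcl2l2. Each line gives 36 coding bases, with the 18 bases of the core in capitals, from GENCODE M21 on GRCm38.

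Bcl2, chr1:106712575-106712610, minus strand, exon 1 of 2: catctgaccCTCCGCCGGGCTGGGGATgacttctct
Bax, chr7:45465997-45466032, minus strand, exon 3 of 6: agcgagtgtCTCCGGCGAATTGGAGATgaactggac
Bad, chr19:6950783-6950818, plus strand, exon 3 of 4: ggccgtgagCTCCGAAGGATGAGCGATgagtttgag
Bid, chr6:120897289-120897324, minus strand, exon 4 of 6: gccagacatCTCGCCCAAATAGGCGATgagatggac
Bcl2l11, chr2:128147141-128147176, plus strand, exon 3 of 4: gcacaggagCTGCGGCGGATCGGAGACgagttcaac
Bbc3, chr7:16313764-16313799, plus strand, exon 3 of 4: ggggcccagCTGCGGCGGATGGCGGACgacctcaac

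The fifth codon of the core encodes glycine in Bcl2, Bax, Bid and Bcl2l11, serine in Bad and alanine in Bbc3. Of the 18 core bases, Bax had 13 in common with Bcl2, whereas Bad, Bcl2l11 and Bbc3 had 11 each, Bid had 10 and Bak1, which is not shown, had 8. The pro-survival genes Bcl2l1 and Mcl1, also not shown, had 11 each, so the count did not follow the roles. The deposited values count reads over whole genes, so they do not separate transcripts that keep this exon from those that skip it.

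Levels within the family spanned a wide range in every strain. FPKM is scaled to the listed length of each gene, so genes can be set side by side on it. That length may differ from the length of the transcripts present, so the order of genes is approximate. Averaged over the 9 libraries, Bcl2l2 had the highest level at 32.2 FPKM. It was followed by Bcl2l1 at 28.3, Bax at 24.7, Mcl1 at 24.3, Bad at 15.96, Bak1 at 5.74, Bbc3 at 4.32, Bid at 2.66, Bcl2 at 2.22 and Bcl2l11 at 0.818 FPKM. The ranges of neighbours in this order were apart for 3 pairs, Mcl1 and Bad, Bad and Bak1, and Bcl2 and Bcl2l11. The other neighbours overlapped over the libraries, although Bcl2l2 exceeded Bcl2l1 in 9 of 9 libraries. Bax exceeded Mcl1 in 5 of 9 and Bid exceeded Bcl2 in 7 of 9. Bcl2 itself, the founding member of the family, made up 2.07% to 3.47% of the summed FPKM of the 4 pro-survival genes, and Bcl2l1, Bcl2l2 and Mcl1 made up the rest. The reads behind one value ranged from 92 (Bcl2l11) to 3037 (Bcl2l2), so the values of Bcl2l11 carry the most counting error.

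**Figure D1:**
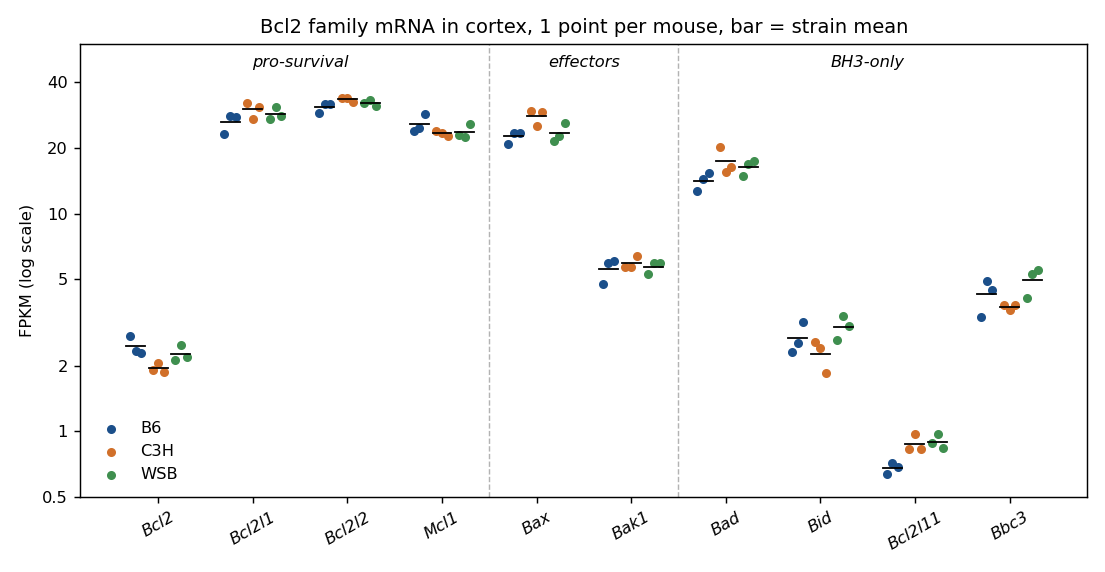
FPKM of the 10 members on a log scale, with 1 point per mouse coloured by strain and a bar at each strain mean (n = 3). The gap between members, from 0.818 FPKM for Bcl2l11 to 32.2 FPKM for Bcl2l2 on average, is far wider than the gap between strains within any member.

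Strains were compared in pairs with limma on log2(FPKM + 0.1), over all genes that averaged 0.1 FPKM or more in the libraries compared. A gene was called where its two-sided p, adjusted by the Benjamini-Hochberg method over all genes tested, was under 0.05. No member was called in any of the 3 comparisons. In WSB against B6, 0 of 10 members were called, against 5.90% of the 20746 genes tested. In C3H against B6 the count was 0 of 10 against 4.64% of 20602 genes, and in WSB against C3H it was 0 of 10 against 5.74% of 20607 genes. At an unadjusted p under 0.05 the counts were 0, 3 and 3 of 10 members, against 20.4%, 24.1% and 23.8% of all genes tested. Limma with voom weights on recovered reads also called 0 members in each comparison, against 7.43%, 7.22% and 8.53% of genes. A count of 0 among 10 genes is not far from what these backgrounds give. The smallest adjusted p of the 30 values was 0.106 (limma, Bax in C3H against B6).

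The estimated differences were small. The largest of the 30 was 0.40 on the log2 scale (Bid, WSB against C3H). The 95% intervals of all 30 lay between a fold of 0.643 and a fold of 1.72, so these data leave room for moderate differences in most members. The median size of the log2 difference, sign ignored, was 0.12 over the members in WSB against B6, 0.21 in C3H against B6 and 0.07 in WSB against C3H. Over all genes tested it was 0.21, 0.25 and 0.25. Those genes reach down to a mean of 0.1 FPKM, where counting error is larger, and 13051, 12955 and 13011 of them averaged 1 FPKM or more. All members but Bcl2l11 averaged 2.22 FPKM or more. The background was not matched to the members in level, so the sizes cannot be ranked against each other. Because WSB and C3H were both set against the same B6 mice, the first and second comparisons share those values. In bulk cortex, fewer cells of a type and less RNA per cell cannot be told apart.

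**Figure D2:**
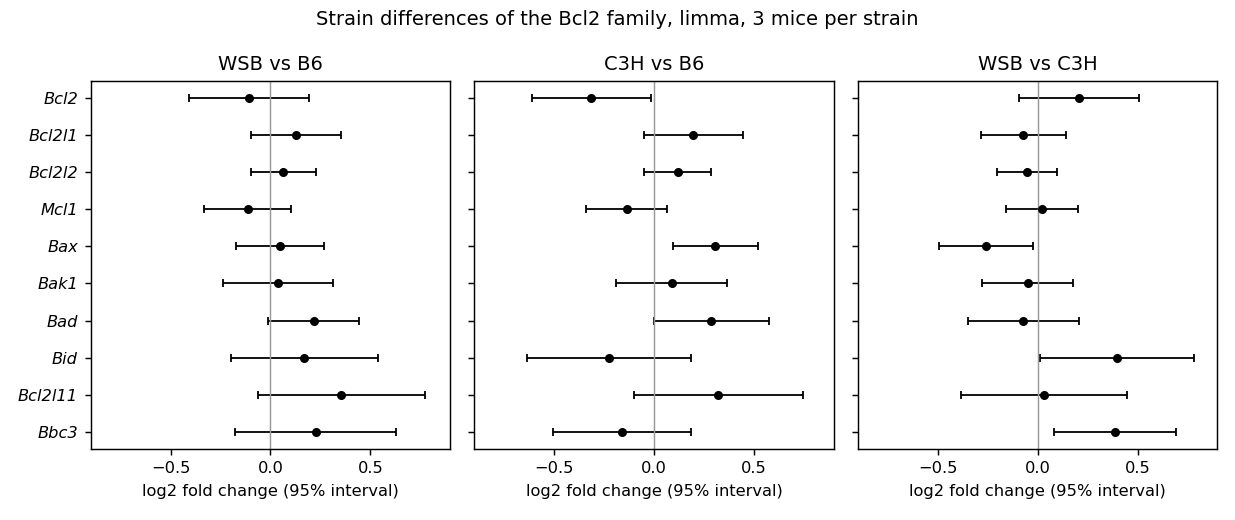
Log2 fold change of each member with its 95% interval from limma, first strain over second, for WSB against B6, C3H against B6 and WSB against C3H (3 mice per strain). The estimates lie between −0.31 and 0.40, and the 6 intervals that leave out 0 (3 in each of the comparisons with C3H) belong to values whose adjusted p was at least 0.106.

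Among the pro-survival genes, Bcl2 (ENSMUSG00000057329) showed the most separation between strains. This anchor of the outer membrane binds BH3-only proteins and Bax. It stood at 2.73, 2.34 and 2.29 FPKM in B6, at 1.91, 2.07 and 1.87 in C3H, and at 2.13, 2.49 and 2.19 in WSB. All 3 C3H mice were below every mouse of the other strains. The log2 difference of C3H from B6 was −0.31 ± 0.13 (SE, n = 3 per strain), with a limma adjusted p of 0.189. Without B6 replicate 1, the mouse with the highest value, it was −0.24 (adjusted p = 0.421). Between WSB and C3H it was 0.21 ± 0.13 (limma adjusted p = 0.365), and between WSB and B6 it was −0.11 ± 0.13 (limma adjusted p = 0.702), with overlapping groups.

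Bcl2l1 (ENSMUSG00000007659) encodes Bcl-xL, the pro-survival protein that maintains mature neurons. Its FPKM was 23.1, 28.1 and 27.6 in B6, 32.2, 27.0 and 31.0 in C3H, and 27.1, 30.7 and 27.9 in WSB. The strains overlapped, and the lowest value was that of B6 replicate 1. The log2 difference of C3H from B6 was 0.20 ± 0.11 (SE, limma adjusted p = 0.294).

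Bcl2l2 (ENSMUSG00000089682) encodes Bcl-w, a relative of Bcl-xL. It held 28.8, 31.8 and 31.9 FPKM in B6, 33.9, 34.0 and 32.6 in C3H, and 32.3, 33.2 and 31.2 in WSB. The C3H mice were all above the B6 mice, by a mean log2 difference of 0.12 ± 0.07 (limma adjusted p = 0.344). Its interval of −0.05 to 0.29 is among the narrowest of the family. Bcl2l2 shares 4794 bases on the same strand with the protein-coding gene Gm20521, which was given at most 2 reads in any library.

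Mcl1 (ENSMUSG00000038612), a pro-survival gene whose protein is made and degraded quickly, had 23.95, 24.7 and 28.6 FPKM in B6. It had 24.03, 23.3 and 22.7 in C3H and 22.9, 22.5 and 25.8 in WSB. Its highest value was that of B6 replicate 3, and the 3 strains overlapped. The log2 differences were −0.14 for C3H against B6, −0.11 for WSB against B6 and 0.02 for WSB against C3H, with limma adjusted p between 0.365 and 0.890.

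Of the effectors, Bax (ENSMUSG00000003873) came nearest to the threshold. Its protein stays in the cytosol of healthy cells and moves to the mitochondrion on activation. B6 mice had 20.8, 23.5 and 23.5 FPKM, C3H mice 29.6, 25.3 and 29.1, and WSB mice 21.4, 22.7 and 26.0. Each C3H mouse was above each B6 mouse, while C3H replicate 2 lay below the highest WSB mouse. The log2 difference of C3H from B6 was 0.31 ± 0.09, a fold of 1.24 with a 95% interval of 1.07 to 1.43, and its limma adjusted p was 0.106. The value depended on C3H replicate 2. Without that mouse it was 0.38 and Bax was called (limma adjusted p = 0.0382), in a fit that called 11.2% of all genes. Leaving out each other mouse in turn gave 0.25 to 0.34, with limma adjusted p from 0.161 to 0.302 and no call. In WSB against C3H without C3H replicate 2, 0 of 10 members were called, against 9.71% of all genes. WSB differed from C3H by −0.26 ± 0.10 (limma adjusted p = 0.179) and from B6 by 0.05 ± 0.09 (limma adjusted p = 0.833).

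Bak1 (ENSMUSG00000057789), the effector that sits in the outer membrane already in healthy cells, had 4.76, 5.95 and 6.06 FPKM in B6. It had 5.69, 5.70 and 6.36 in C3H and 5.27, 5.95 and 5.91 in WSB. The strains overlapped, and no log2 difference exceeded 0.09 in size. Bak1 lies within Ggnbp1 on the opposite strand, and Ggnbp1 was given at most 122 reads. Whether reads were counted by strand is not given in the sources used here, so reads of overlapping genes on opposite strands may not have been kept apart.

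**Figure D3:**
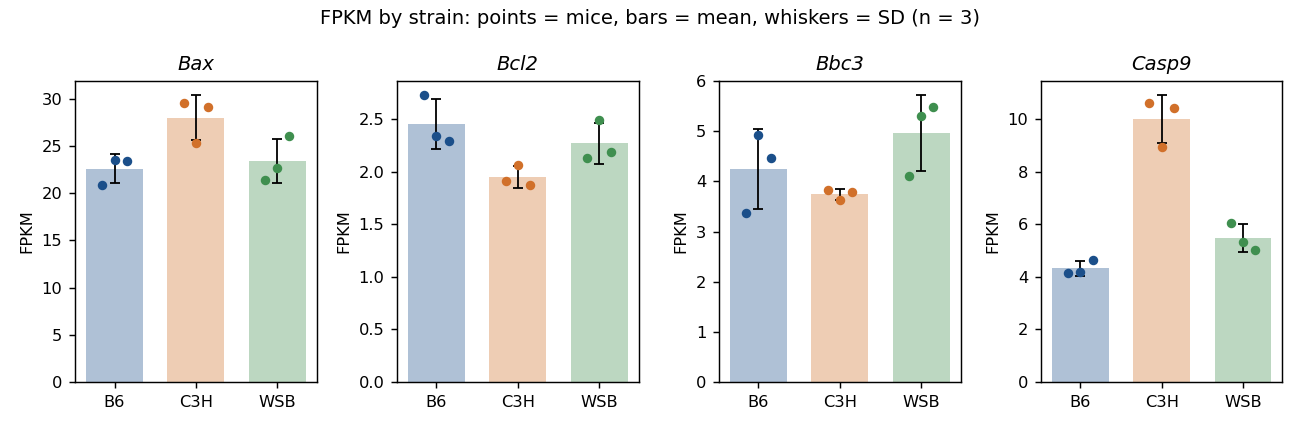
FPKM of Bax, Bcl2, Bbc3 and Casp9 by strain, with 1 point per mouse, a bar at the mean and a whisker of 1 SD (n = 3), each axis starting at 0. C3H mice lie above all B6 mice for Bax and Casp9 and below all B6 mice for Bcl2, and the bars of Casp9 differ most, at 10.002 FPKM in C3H against 4.33 in B6 and 5.47 in WSB.

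Among the BH3-only genes, Bad (ENSMUSG00000024959) was the most abundant. Its protein is held inactive by phosphorylation when growth factors are present. Bad was given 12.7, 14.5 and 15.3 FPKM in B6, 20.2, 15.4 and 16.3 in C3H, and 14.9, 16.9 and 17.3 in WSB. The C3H mice were all above the B6 mice, by a narrow margin for C3H replicate 2. The log2 difference was 0.29 ± 0.12 for C3H against B6 (limma adjusted p = 0.207) and 0.22 ± 0.10 for WSB against B6 (limma adjusted p = 0.270). Bad overlaps Gpr137, on the opposite strand at a mean of 35.5 FPKM, over 590 bases.

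Bid (ENSMUSG00000004446) links the death receptors to the mitochondrion once caspase-8 has cut its protein. Its FPKM was 2.31, 2.54 and 3.19 in B6, 2.57, 2.41 and 1.84 in C3H, and 2.63, 3.38 and 3.04 in WSB. Every WSB mouse was above every C3H mouse, though the gap between the nearest mice was small, from 2.57 to 2.63 FPKM. WSB differed from C3H by 0.40 ± 0.17 on the log2 scale (limma adjusted p = 0.201), with a 95% interval of 0.01 to 0.78. Bid shares 913 bases with Bcl2l13, on the opposite strand at a mean of 5.70 FPKM.

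Bcl2l11 (ENSMUSG00000027381) encodes Bim, a BH3-only protein that is induced when neurons lose trophic support. It was the least abundant member, at 0.640, 0.715 and 0.684 FPKM in B6, 0.830, 0.971 and 0.828 in C3H, and 0.884, 0.971 and 0.839 in WSB. All 6 mice of C3H and WSB lay above all 3 B6 mice. The log2 difference was 0.35 ± 0.18 for WSB against B6 (limma adjusted p = 0.320) and 0.32 ± 0.18 for C3H against B6 (limma adjusted p = 0.312). The 95% intervals, −0.06 to 0.77 and −0.10 to 0.74, were among the widest of the family. The offset of 0.1 FPKM makes these differences smaller than those of the levels themselves at such a low level.

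Bbc3 (ENSMUSG00000002083) encodes Puma, a target of p53. It had 3.37, 4.92 and 4.46 FPKM in B6, 3.82, 3.62 and 3.78 in C3H, and 4.11, 5.30 and 5.49 in WSB. C3H mice were close together and below all WSB mice, while B6 ranged across both. WSB exceeded C3H by 0.39 ± 0.13 on the log2 scale, a fold of 1.31 with a 95% interval of 1.06 to 1.62, and the limma adjusted p was 0.133. Once the GC trend was taken out of each library, the difference was 0.55 and Bbc3 was called (limma adjusted p = 0.0297), in a fit that called 6.96% of all genes. The removal takes out the average trend of genes of like GC content. Pearson's r between the level of Bbc3 and that trend was −0.02 over 9 libraries, a value in which strain and trend are mixed. Within each strain, the library with the lowest rho also had the lowest Bbc3. These were B6 replicate 1 (rho −0.47, 3.37 FPKM), C3H replicate 2 (−0.18, 3.62) and WSB replicate 1 (−0.37, 4.11). The trend was highest in 2 C3H libraries, with a rho of 0.51 and 0.53. Bbc3 was called in 1 of 10 other settings and in 0 of 6 fits with a mouse left out.

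Groups that did not overlap were counted as well. In WSB against B6, 1 of 10 members (Bcl2l11) had no overlap, against 26.0% of genes tested. In C3H against B6 the 5 were Bad, Bax, Bcl2l2 and Bcl2l11, higher in C3H, and Bcl2, lower, against 28.9% of genes. In WSB against C3H the 3 were Bcl2, Bid and Bbc3, all higher in WSB, against 28.6% of genes. The share of members was below the background in the first comparison, above it in the second and close to it in the third, with only 10 genes behind each share.

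The balance between roles was described with ratios of FPKM, without a test. The ratio of Bax to Bcl2 was 7.64, 10.02 and 10.2 in B6, 15.5, 12.2 and 15.5 in C3H, and 10.1, 9.12 and 11.9 in WSB. All C3H mice were above all others, with a mean of 14.4 ± 1.91 (SD, n = 3) against 9.30 ± 1.44 in B6 and 10.4 ± 1.41 in WSB. The log2 difference of Bax less that of Bcl2, for C3H against B6, was 0.62. It was 0.49 without B6 replicate 1, 0.73 without C3H replicate 2 and 0.33 with the GC trend removed. The summed pro-survival FPKM was 3.03 ± 0.06 times that of the effectors in B6, 2.63 ± 0.15 times in C3H and 2.997 ± 0.24 times in WSB. The lowest WSB mouse, at 2.73, lay within the C3H range of 2.48 to 2.79. The ratio of pro-survival to BH3-only FPKM gave another order. It ranged from 3.83 to 4.14 among B6 mice, from 3.35 to 3.87 among C3H mice and from 3.26 to 3.75 among WSB mice, so that WSB was lowest on average and did not overlap B6. The summed pro-survival FPKM alone was 85.3 ± 6.12 in B6, 88.8 ± 2.89 in C3H and 86.8 ± 2.25 in WSB, and the ranges of the strains overlapped.

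The members followed the GC trend of the libraries to different degrees. Bax transcripts have 63.5% GC, and over the 9 libraries Pearson's r between the log2 level of Bax and the GC trend of the library was 0.89. For Bcl2, with 46.3% GC, r was −0.71. The same r was 0.88 for Bcl2l1, 0.78 for Bad, 0.66 for Bak1 and 0.58 for Bcl2l2. Bbc3 has the highest GC content of the family, 65.2%, and its r over all libraries was −0.02. Within each strain, its level was lowest in the library with the lowest GC trend. These correlations describe 9 points in which the strains are also separate groups, since both libraries with a rho above 0.5 came from C3H. With the GC trend removed, the log2 difference of Bax between C3H and B6 was 0.10 (limma adjusted p = 0.282) in place of 0.31, that of Bcl2 was −0.24 (limma adjusted p = 0.247) in place of −0.31, and that of Bad was 0.13 (limma adjusted p = 0.416) in place of 0.29. Those of Bcl2l1 and Bcl2l2 were 0.053 and 0.018 in place of 0.20 and 0.12 (limma adjusted p = 0.664 and 0.898). That of Bbc3 was −0.39 in place of −0.16 (limma adjusted p = 0.0973). For WSB against C3H, Bax differed by −0.11 in place of −0.26 (limma adjusted p = 0.340). For C3H against B6, Bcl2l11, at 48.0% GC, had a difference of 0.35 in place of 0.32 (limma adjusted p = 0.263). Members called with the GC trend removed were 0 in WSB against B6, 0 in C3H against B6 and 1 in WSB against C3H, against 7.03%, 5.81% and 6.96% of all genes. Over genes with at least 1 FPKM, Spearman's rho between GC content and log2 fold change was 0.11 in WSB against B6, 0.49 in C3H against B6 and −0.40 in WSB against C3H.

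**Figure D4:**
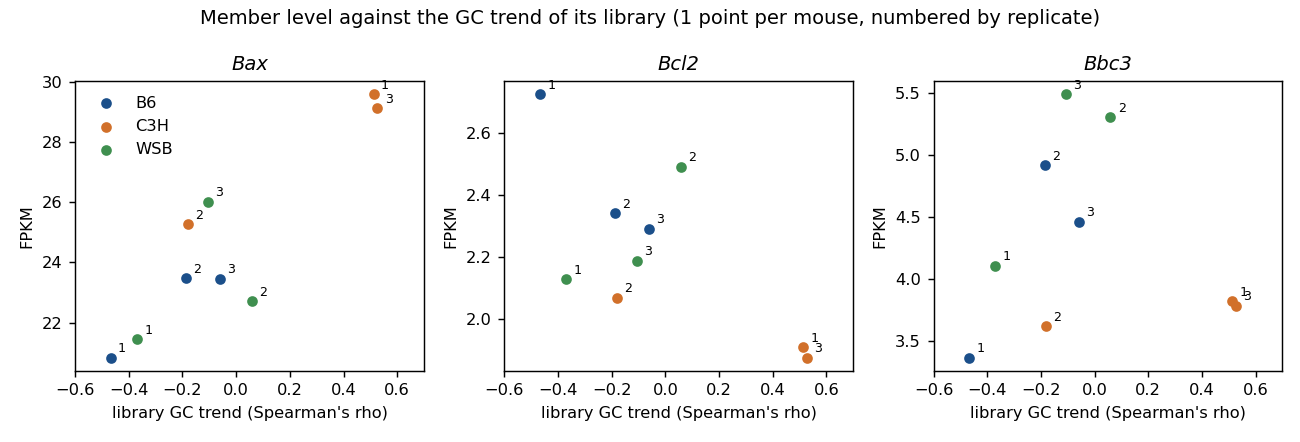
FPKM of Bax, Bcl2 and Bbc3 in each library against the GC trend of that library (Spearman's rho between transcript GC content and the deviation of genes from their mean over all libraries), with 1 point per mouse, coloured by strain and numbered by replicate. C3H replicates 1 and 3 lie apart at a rho of 0.51 and 0.53, where Bax is highest and Bcl2 lowest, and C3H replicate 2 lies at −0.18.

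B6 replicate 1 held the lowest of the 9 values for 7 of 10 members and the highest for Bcl2. The genes whose pattern over the 9 libraries was most like that of Bax, among the 13001 genes averaging 1 FPKM or more, were Coro1b (Pearson's r = 0.99), Ubxn1 (0.98) and Rnf208 (0.98). Those most like Bcl2 were Dnm3 (0.97), Mdn1 (0.97) and Dhx9 (0.96). The GC trend ran through these genes too, with an r of 0.84 to 0.94 for the 3 like Bax and −0.81 to −0.75 for the 3 like Bcl2.

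The 53 other genes of apoptosis cover further family members, the caspases and the apoptosome, the inhibitors of apoptosis, nucleases, outer membrane channels, upstream regulators and death receptors. Of these, 48, 49 and 50 passed the filter in WSB against B6, C3H against B6 and WSB against C3H. In each comparison 1 was called, against backgrounds of 5.90%, 4.64% and 5.74%. Bcl2l10, Bcl2l14 and Bik never exceeded 5 reads in a library and were tested in none.

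Casp9 (ENSMUSG00000028914, chr4:141793612-141815976, plus strand, GRCm38) encodes caspase-9, the initiator protease that is activated downstream of the Bcl2 family. It had 4.16, 4.18 and 4.66 FPKM in B6, 10.6, 8.96 and 10.4 in C3H, and 6.06, 5.31 and 5.02 in WSB. The 3 strains did not overlap, with B6 lowest and C3H highest. Casp9 was higher in C3H than in B6 by 1.19 ± 0.10 on the log2 scale, a fold of 2.28 with a 95% interval of 1.93 to 2.69 (limma adjusted p = 0.000777). It was lower in WSB than in C3H, with a log2 difference of −0.86 ± 0.11 (limma adjusted p = 0.00558), a call that was lost with no filter on low values (limma adjusted p = 0.0591). For WSB against B6 the difference was 0.33 ± 0.11 and was not called (limma adjusted p = 0.136). With the GC trend removed the difference of C3H from B6 was 1.08 and was still called. Casp9 was given 387 to 1053 reads, and its opposite-strand neighbours Cela2a and Ctrc at most 1.

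Endog (ENSMUSG00000015337, chr2:30171493-30174069, plus strand, GRCm38) encodes endonuclease G, a mitochondrial nuclease that can cut DNA after its release. It had 9.40, 7.87 and 8.03 FPKM in B6, 12.0, 11.5 and 17.2 in C3H, and 10.5, 12.7 and 13.0 in WSB. All 6 mice of C3H and WSB were above all B6 mice. Endog was called in WSB against B6, at a log2 difference of 0.51 ± 0.11 (limma adjusted p = 0.0439). The call was lost without B6 replicate 2 or 3 or WSB replicate 2 or 3, at limma adjusted p values of 0.132 to 0.151. It was also lost under 5 of 10 other settings, with limma adjusted p of 0.0557 with voom weights, 0.0890 with all 3 strains in one fit, 0.0998 with the GC trend removed, 0.124 with the replicate block and 0.228 with no filter. In C3H against B6 the difference was 0.66 ± 0.16 (limma adjusted p = 0.0680), and it was called without C3H replicate 2, at 0.77 (limma adjusted p = 0.0394). With the GC trend removed it was 0.44 (limma adjusted p = 0.178). Endog shares 617 bases with Spout1, on the opposite strand at a mean of 12.8 FPKM.

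By group, the caspases and apoptosome (8 genes) gave 1 call in C3H against B6 and 1 in WSB against C3H, both Casp9. The nuclease group (4 genes) gave Endog in WSB against B6. The 15 further family members, the 7 inhibitors of apoptosis and their antagonists, the 3 channel proteins, the 12 upstream regulators and the 4 death receptor genes gave no call by limma in any comparison. The median log2 difference over the 53-gene list was −0.06, −0.00 and −0.05 in the 3 comparisons, against 0.00, −0.00 and 0.01 over all genes tested. At an unadjusted p under 0.05 by limma, 8 of 48, 10 of 49 and 9 of 50 genes of the list passed, against 20.4%, 24.1% and 23.8% of all genes. The share of the list was a little below the background in each comparison, by few genes. The list was not matched to the background in level, and the comparisons share mice.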

How the data were processed

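Per the labels and the methods of the study, RNA of brain cortex from 3 male mice per strain was sequenced as paired ends. The authors used Cutadapt to trim adapters, HTSeq for gene counts and DESeq2 for their tests. The submitters' processing notes also name STAR. Versions are not given in the sources used here. The deposited values are FPKM per gene and library. Multiplied by gene length they were whole multiples of 1 step per library (100.0% of values within 0.01 read), which gave the reads used for depth and voom weights. The scaling between libraries followed their median-ratio size factors and not their total reads. No column of values was left unused.

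Values were tested with limma 3.58.1 in R 4.3.3 (lmFit, then eBayes with its trend option) on log2(FPKM + 0.1), 2 strains at a time and two-sided. Genes averaging 0.1 FPKM or more entered, and p was adjusted by the Benjamini-Hochberg method, with calls under 0.05. Separate mice are given by the labels, without cages, litters or dates. The GC trend was a lowess curve (span 0.3) of each library's deviation on the GC content of the longest transcript, over 12995 genes with at least 1 FPKM. The alternatives were leaving out each mouse, GC trend removal, a block for the replicate number, voom weights, a joint fit of 3 strains, rescaling by total reads or median ratios, a minimum of 1 FPKM or none, and pseudocounts of 0.01 and 1.

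The members, the 53 other apoptosis genes and the marker lists (9 lists, 45 genes) were chosen with earlier results of these data known. A marker gene and the sum that holds it are not reported here. All members were named, as were listed genes called in any comparison and the 3 genes with the highest Pearson correlation with Bcl2 and with Bax. Of the gene identifiers, GENCODE M21 held 54409, of which 53499 lay at identical coordinates. The gene coordinates of Bad differ between that annotation and the deposited table.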

Additional observations from a re-analysis of the deposited data

Results flagged for a closer look

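Casp9 was singled out because the difference itself was tested and passed the threshold between the strains that were each set against B6. The log2 difference of WSB from C3H was −0.86 ± 0.11 (SE, limma adjusted p = 0.00558, 3 mice per strain), and all 3 WSB mice were below all 3 C3H mice. With no filter on low values the limma adjusted p was 0.0591. The difference from B6 was 1.19 in C3H and 0.33 in WSB.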

How the results depend on the processing

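No member was called under most alternatives. Of 297 member values under 10 other settings, 290 kept their sign and their side of the threshold, and 168 of 180 did so with 1 mouse left out. Part of the first agreement was fixed by the settings. A minimum of 1 FPKM or none, the joint fit and the replicate block leave the estimate unchanged and move only its p. Median-ratio rescaling left the estimates nearly unchanged, since the deposited values already carried that scaling. Members called with 1 mouse left out ranged from 0 to 1 in C3H against B6 (Bax, without C3H replicate 2, where 11.2% of all genes were called), and removing the GC trend gave 1 in WSB against C3H (Bbc3, with 6.96% of all genes). The listed apoptosis genes called in WSB against B6 were 0 with no filter, with all 3 strains in one fit, with GC trends taken out and with the replicate block, and 0 to 1 with a mouse left out. Voom weights called 1, but it was Casp6 and not Endog. In C3H against B6 they were 2 with all 3 strains in one fit and with voom weights (Casp9 and Endog), and 1 to 6 with a mouse left out (6 without C3H replicate 2, beside the 11.2% of all genes). In WSB against C3H they were 0 with no filter, where Casp9 had a limma adjusted p of 0.0591, and 1 to 2 with a mouse left out (2 without C3H replicate 2, beside 9.71% of all genes). The cause of these moves was not tested.

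Signs that turned belonged to member differences of at most 0.09 in size, and to Endog in WSB against C3H. The difference of Endog there was −0.15 before any change of setting. With the GC trend removed, the log2 difference was −0.013 for Bax in WSB against B6 and −0.068 for Bak1 in C3H against B6. In WSB against C3H it was 0.040 for Bcl2l1, 0.024 for Bcl2l2, 0.069 for Bak1, 0.048 for Bad and 0.0071 for Endog. With 1 mouse left out, Bax in WSB against B6 ranged from −0.031 to 0.11, and Bak1 from −0.073 to 0.099 in WSB against B6, −0.022 to 0.15 in C3H against B6 and −0.081 to 0.0052 in WSB against C3H. In WSB against C3H, Mcl1 ranged from −0.039 to 0.060, Bad from −0.15 to 0.044, Bcl2l11 from −0.019 to 0.10 and Endog from −0.26 to 0.034.

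Same-numbered mice of different strains did not deviate together (r from −0.16 to 0.04). Mice with different numbers gave an r from −0.15 to 0.20. These values show no pairing by number, but whether same-numbered mice were handled together was not tested. With the replicate block 0 members were called in each comparison. The filter of 1 FPKM left Bcl2l11 untested. Depth limits Bcl2l11 most, at 92 reads in its lowest library.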
